A study of Mus musculus with 10 samples.

Results

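The genes described here encode the enzymes of the urea cycle and of amino acid breakdown in the liver. The list holds 41 named genes, taken as given, and was drawn up with earlier results of these data known. Of these, 39 had a transcript cluster, a group of probes for 1 transcript region, annotated with that gene symbol alone, and all 39 passed the filter on level described below. Gls2 and Sds had no such cluster and were not analysed here. The whole array gave 22180 genes with a cluster of their own, of which 13308 were tested.

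The livers were those of male mice aged 4 weeks, and RNA of each sample was hybridised to 1 Affymetrix mouse whole-transcript array. In 3 livers shRNA 1 and in 3 livers shRNA 2 had been expressed, both short hairpin RNAs that target Sod2, which encodes superoxide dismutase of mitochondria, driven by the doxycycline-dependent activator rtTA. The remaining 4 livers came from littermates that carried rtTA alone. All 3 groups carried Rosa26-rtTA, an activator gene at a locus that is active in most tissues, and their dams had been given doxycycline chow at 625 mg/kg that covered embryonic day 0 to 12.5. The 6 shRNA livers are called adapted, as in the labels. Per the labels, 3 controls belonged to the cohort of shRNA 2 and 1 to that of shRNA 1, without saying which, so that cohort could not be a term in any fit and hairpin and cohort cannot be told apart. Comparisons of shRNA 1 with control are thus mostly between cohorts, and those of shRNA 2 mostly within 1. Whether the samples came from separate animals is not stated, and the spread that p-values rest on may therefore be technical.

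The urea cycle converts ammonia, which is toxic to the brain, into urea and runs almost wholly in hepatocytes, with its first steps inside mitochondria and the later ones in the cytosol. Amino acid breakdown feeds it with nitrogen, and the carbon skeletons enter the citric acid cycle or gluconeogenesis. Many of these enzymes are known to be raised in the liver by fasting, protein intake, glucagon and glucocorticoids. The pathway is also divided across the liver lobule: periportal hepatocytes hold the urea cycle and histidine breakdown, and a rim of pericentral hepatocytes around the central vein holds glutamine synthetase, which captures the ammonia that escaped.

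Array medians lay between log2 4.06 and 4.17, and precision is limited throughout by the number of arrays. Sod2 itself was at 10.39 ± 0.06 in shRNA 1 livers and 10.35 ± 0.12 in shRNA 2 livers (SD, n = 3 each), against 10.38 ± 0.08 in control livers (SD, n = 4). The arrays were made after the doxycycline window and do not show the depth of the knockdown before birth. Albumin (Alb), the defining hepatocyte product, lay between 13.70 and 13.82 in adapted livers and between 13.72 and 13.78 in controls. The highest value of any cluster was 13.82, and whether signal saturates there was not tested. The 7 hepatocyte markers tested had a mean level, relative to the mean of the controls, between -0.04 and +0.01 in adapted livers and between -0.01 and +0.01 in controls. Single markers differed from control by -0.15 to +0.09 in shRNA 1 livers. There 1 of the 7 lay above all controls in every array (5.07% of all genes did) and 2 lay below (3.82%). In whole tissue, fewer cells of a type and less RNA per cell cannot be told apart.

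As a group the enzymes stood slightly higher in shRNA 1 livers, and no enzyme passed the test across all genes. The test was limma with Benjamini-Hochberg adjustment over the 13308 genes at a threshold of 0.05. It called 0 of 39 enzymes for adapted against control livers, 0 for shRNA 1 against control, 0 for shRNA 2 against control and 0 for shRNA 1 against shRNA 2. The background shares of all genes called were 0.00751%, 0%, 0.00751% and 0.015% in the same order, so calls were rare everywhere. At an unadjusted p under 0.05, 5 enzymes were higher in adapted livers (4.86% of all genes were) and 0 lower (3.51%), with 8.37% of all genes past that mark in either direction. For shRNA 1 against control 7 were higher (background 4.57%) and 0 lower (3.32%), with 7.89% of all genes in either direction. For shRNA 2 against control 0 were higher (background 4.14%) and 1 lower (3.46%), with 7.6% in either direction. Between the lines 4 were higher in shRNA 1 (background 3.32%) and 0 lower (2.7%), with 6.02% in either direction.

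The direction of the differences was uneven between the lines. A positive difference from control was found for 31 of 39 enzymes in shRNA 1 livers, where 52.4% of all genes were positive, and for 20 of 39 in shRNA 2 livers, where the background was 51.2%. The median difference of the enzymes was +0.13 on the log2 scale in shRNA 1 livers and 0.00 in shRNA 2 livers, with medians over all genes of +0.01 and 0.00. Of the same 39, 30 were positive for shRNA 1 minus shRNA 2 (background 51.1%), with a median of +0.12. Both lines together gave 29 of 39 positive (background 52%) and a median of +0.06. The 3 shRNA 1 arrays averaged +0.15, +0.17 and +0.15 over the 39 enzymes, relative to the mean of the controls. The 3 shRNA 2 arrays averaged -0.01, -0.07 and +0.02, and the 4 control arrays lay between -0.04 and +0.04. The 2 comparisons with control share the 4 control arrays. These counts describe a list of genes that share arrays and are not independent, and no test was run over the list.

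**Figure D1:**
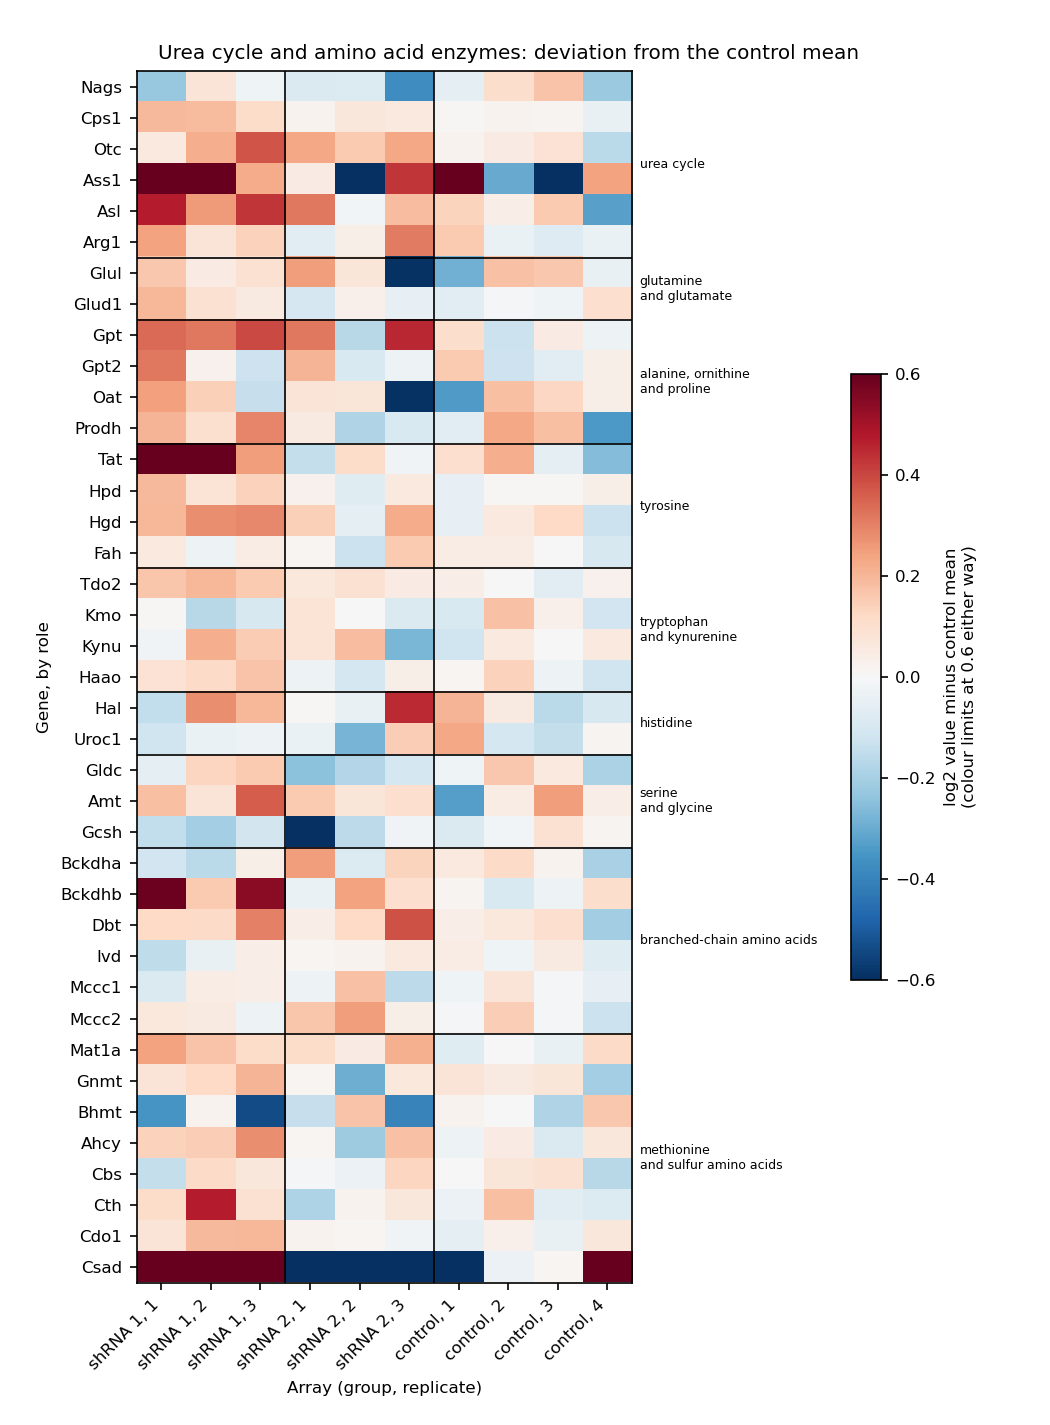
Deviation of each of the 39 enzymes (rows, grouped by role) from the mean of the 4 control livers in each of the 10 arrays (columns). Colour gives the log2 difference, red for higher and blue for lower, with the colour limits at 0.6 either way; the 3 shRNA 1 columns are mostly red, Csad is saturated in both lines with opposite colours, and Glul and Oat are blue in shRNA 2 array 3 and control array 1.

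A second description counted enzymes whose groups did not overlap, with every array of one group above every array of the other. In shRNA 1 against control livers 12 of 39 enzymes (30.8%) lay wholly above, against 5.07% of all genes, and 1 lay wholly below, against 3.82%. The 12 were Cps1 and Asl of the urea cycle, Gpt, Tat, Hpd and Hgd, Tdo2, Bckdhb and Dbt, and Ahcy, Cdo1 and Csad, and the 1 below was Gcsh. In shRNA 2 against control livers 2 enzymes, Otc and Tdo2, lay wholly above (background 3.88%) and 0 wholly below (3.41%). In shRNA 1 against shRNA 2 livers 12 lay wholly above (background 5.94%) and 0 below (5.36%). They were Cps1, Glud1, Prodh, Tat, Hpd, Tdo2, Haao, Gldc, Gnmt, Cth, Cdo1 and Csad. The counts of shRNA 1 against control and against shRNA 2 share the 3 shRNA 1 arrays. Such counts depend on the spread within groups as well as on the difference. Tdo2, Cps1, Hpd and Cdo1 were among the genes of narrowest spread, and most of the enzymes stand high in level among all genes tested. The background of all genes was not matched for level or spread. Without control 1 and shRNA 2 array 3, 2 arrays described below that stand apart in Glul and Oat, 14 enzymes lay wholly above the controls (background 7%) and 18 wholly above shRNA 2 (background 12.1%) in shRNA 1 livers, a check chosen after seeing the data.

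**Figure D2:**
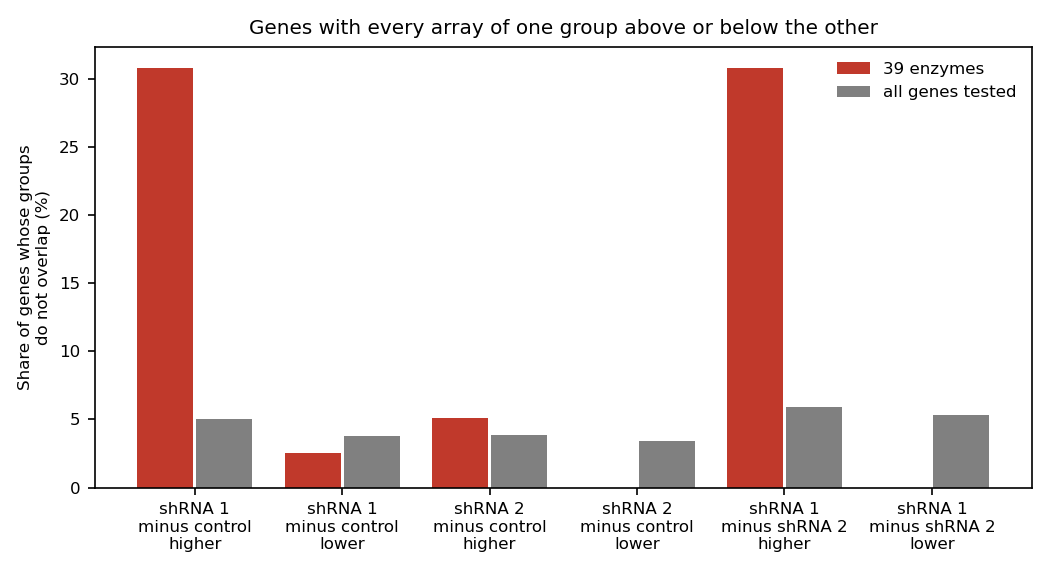
Share of genes, in percent, whose groups do not overlap, for the 39 enzymes (red) and for all 13308 genes tested (grey), in 3 comparisons and both directions. The enzymes stand at 30.8% for shRNA 1 above control and for shRNA 1 above shRNA 2, where all genes stand at 5.07% and 5.94%.

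The widest difference was that of Csad, cysteine sulfinic acid decarboxylase, which makes hypotaurine, the precursor of taurine, from a breakdown product of cysteine. Its log2 values were 9.62, 9.73 and 9.71 in shRNA 1 livers, 7.31, 7.79 and 7.93 in shRNA 2 livers, against 7.93, 8.67, 8.72 and 9.52 in control livers. Every shRNA 1 array lay above every control, the shRNA 2 arrays lay below or level with the lowest control, and the controls spread across most of the gap. It averaged 9.69 ± 0.06 in shRNA 1 and 7.68 ± 0.32 in shRNA 2 livers (SD, n = 3 each), against 8.71 ± 0.65 in controls (SD, n = 4). shRNA 1 exceeded shRNA 2 by +2.01 on the log2 scale, or 4.03-fold, with a standard error of 0.30 and a 95% interval of 1.35 to 2.67. Its unadjusted p was 2.63e-05 and its adjusted p in limma 0.0821, so that it missed the threshold, and it was the largest positive difference of the 13308 genes in that comparison. Against control the difference was +0.98 for shRNA 1 (adjusted p = 0.364 in limma) and -1.03 for shRNA 2 (adjusted p = 0.563). The mean of both lines stood at -0.03, which averages lines that differed from control in opposite directions. With each array left out in turn, the shRNA 1 to shRNA 2 adjusted p in limma ran from 0.0101 to 0.317. It passed the threshold in 2 of these fits, without control 1 (0.0141) and without control 4 (0.0101). Control arrays enter that comparison only through the spread shared by the 3 groups.

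The promoters of Csad, Tat and Bckdhb are shown because these 3 enzymes had the highest moderated statistics both in shRNA 1 against control and in shRNA 1 against shRNA 2. Each window is the 250 bases before an annotated start in RefSeq on GRCm38.p6, written 5′ to 3′ on the strand of the gene, with matches to the searched motifs in capitals. Csad and Bckdhb each have 2 annotated starts with different windows, and which start was in use was not measured on these arrays.
Csad, chr15:102205053-102205302, minus strand: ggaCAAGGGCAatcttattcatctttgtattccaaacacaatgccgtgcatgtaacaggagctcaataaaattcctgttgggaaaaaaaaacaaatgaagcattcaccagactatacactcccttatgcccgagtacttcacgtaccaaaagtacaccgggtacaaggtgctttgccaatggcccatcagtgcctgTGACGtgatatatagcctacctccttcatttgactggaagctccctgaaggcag
Csad, chr15:102189044-102189293, minus strand: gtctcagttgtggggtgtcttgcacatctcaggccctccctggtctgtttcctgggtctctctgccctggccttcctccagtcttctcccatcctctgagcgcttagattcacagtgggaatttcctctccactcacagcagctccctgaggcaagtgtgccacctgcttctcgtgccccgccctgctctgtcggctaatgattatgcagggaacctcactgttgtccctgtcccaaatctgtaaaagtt
Tat, chr8:109990186-109990435, plus strand: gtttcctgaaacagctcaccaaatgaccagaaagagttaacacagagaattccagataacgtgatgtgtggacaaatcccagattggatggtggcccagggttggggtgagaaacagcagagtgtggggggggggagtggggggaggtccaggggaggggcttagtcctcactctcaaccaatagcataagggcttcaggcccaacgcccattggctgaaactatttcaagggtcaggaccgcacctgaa
Bckdhb, chr9:83924887-83925136, plus strand: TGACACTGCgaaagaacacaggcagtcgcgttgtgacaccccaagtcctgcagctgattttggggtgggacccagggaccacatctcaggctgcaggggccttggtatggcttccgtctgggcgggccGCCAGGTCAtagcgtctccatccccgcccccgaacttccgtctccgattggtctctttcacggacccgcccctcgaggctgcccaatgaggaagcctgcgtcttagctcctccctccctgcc
Bckdhb, chr9:83948531-83948780, plus strand: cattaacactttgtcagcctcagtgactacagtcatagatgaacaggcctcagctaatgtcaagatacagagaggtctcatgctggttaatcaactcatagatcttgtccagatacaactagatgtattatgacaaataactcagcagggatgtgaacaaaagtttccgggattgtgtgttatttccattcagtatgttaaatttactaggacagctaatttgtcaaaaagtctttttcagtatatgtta

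Both strands were searched for the cyclic AMP response element TGACGTCA and its shorter form TGACG, the glucocorticoid response element, the C/EBP site TTGCNNAA, the HNF4 site CAAAGTCCA, the E-box CACGTG, the D-box TTANGTAA, the LRH-1 site CAAGGNCA and the antioxidant response element TGACNNNGC. The shorter form is contained in the full cyclic AMP element. The first Csad window holds an LRH-1 match 247 bases and a TGACG match 54 bases before the start. The second Csad window, the second Bckdhb window and the Tat window hold 0 matches. The first Bckdhb window holds the antioxidant element's letters at 250 and 122 bases before the start, the nearer one on the opposite strand. Of the 32851 RefSeq windows searched, 5.53% hold the LRH-1 letters, 17.8% TGACG and 10.2% the antioxidant element, so that these matches are common. Of the 41 enzymes, 30 have 1 or 2 windows there, 32 in all, and 22 of the 32 hold no motif. Of these windows 3 hold the LRH-1 letters (Csad, Bhmt and Ivd) and 0 the glucocorticoid element, which 0.387% of all windows hold. With so rare an element, 0 among 32 windows carries little information. Bases more than 250 before a start were not searched, for Tat or any other enzyme. A match is a description of the letters, and no binding was measured.

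The urea cycle enzymes were mostly a little higher in shRNA 1 livers. Cps1, carbamoyl-phosphate synthetase, which performs the first committed step in the mitochondrial matrix, had 13.03, 13.03 and 12.95 in shRNA 1 livers, 12.86, 12.91 and 12.90 in shRNA 2 livers, against 12.84, 12.86, 12.86 and 12.79 in control livers. The shRNA 1 arrays lay above all others, and 1 shRNA 2 array fell within the control range. The difference of adapted livers from control was +0.11 with a standard error of 0.07 (adjusted p = 0.701 in limma, p = 0.0286 in an exact permutation test of 6 against 4 arrays). Its spread within groups was among the narrowest on the array, at an SD of 0.04, against a median of 0.16 over all genes. Over the 210 splits of 6 against 4 arrays the smallest p possible is 0.0048. Only Cps1, Otc, Tdo2 and Mat1a fell under 0.05 in this permutation test, which was not adjusted for the number of enzymes. All other enzymes lay above 0.05 in it, among them Gpt and Hgd (both 0.0571), Asl (0.0619), Gcsh (0.0667), Bckdhb (0.0905) and Tat (0.224).

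Otc, ornithine transcarbamylase, which joins carbamoyl phosphate to ornithine, had 11.05, 11.21 and 11.38 in shRNA 1 livers, 11.23, 11.15 and 11.23 in shRNA 2 livers, against 11.02, 11.04, 11.08 and 10.84 in control livers. The shRNA 2 arrays lay above all controls, and 1 shRNA 1 array lay among them. The adapted difference was +0.21 (standard error 0.08, adjusted p = 0.522 in limma, p = 0.0143 in the exact permutation test). Asl, argininosuccinate lyase, which releases arginine and fumarate, had 11.06, 10.84 and 11.01 in shRNA 1 livers, 10.90, 10.57 and 10.77 in shRNA 2 livers, against 10.72, 10.62, 10.74 and 10.26 in control livers. Control 4 was its lowest array, and the shRNA 2 arrays overlapped the controls. Its adapted difference was +0.27 (standard error 0.11, adjusted p = 0.534 in limma), and that of shRNA 1 alone was +0.39 (adjusted p = 0.470). Without control 4 the adapted difference was +0.17.

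Arg1, arginase, which splits arginine into urea and ornithine, had 11.73, 11.56 and 11.63 in shRNA 1 livers, 11.42, 11.52 and 11.80 in shRNA 2 livers, against 11.64, 11.45, 11.41 and 11.45 in control livers. The groups overlapped, with shRNA 2 array 3 the highest of all, and the adapted difference was +0.12 (adjusted p = 0.765 in limma), or +0.07 without shRNA 2 array 3. Nags, which makes the N-acetylglutamate that Cps1 needs as an activator, was the 1 urea cycle enzyme below control in both lines. Its values were 8.43, 8.73 and 8.63 in shRNA 1 livers, 8.57, 8.57 and 8.28 in shRNA 2 livers, against 8.60, 8.76, 8.83 and 8.43 in control livers, with a difference of -0.12 (adjusted p = 0.809 in limma). That difference was -0.06 without control 3, -0.07 without shRNA 2 array 3, -0.08 without shRNA 1 array 1 and -0.19 without control 4. Ass1, argininosuccinate synthetase, which adds the second nitrogen from aspartate, had 6.63, 6.50 and 5.86 in shRNA 1 livers, 5.69, 4.18 and 6.07 in shRNA 2 livers, against 6.64, 5.34, 4.71 and 5.88 in control livers. It was the widest of the 39 enzymes, with an SD within groups of 0.79 against a median of 0.14, and its difference of +0.18 was smaller than its standard error of 0.40. Without control 3 it was -0.13, and without shRNA 2 array 3 it was -0.01, and over all arrays left out in turn it ran from -0.13 to +0.51. It came from the 1 cluster annotated with Ass1 alone, and whether that cluster follows the main transcript was not tested.

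**Figure D3:**
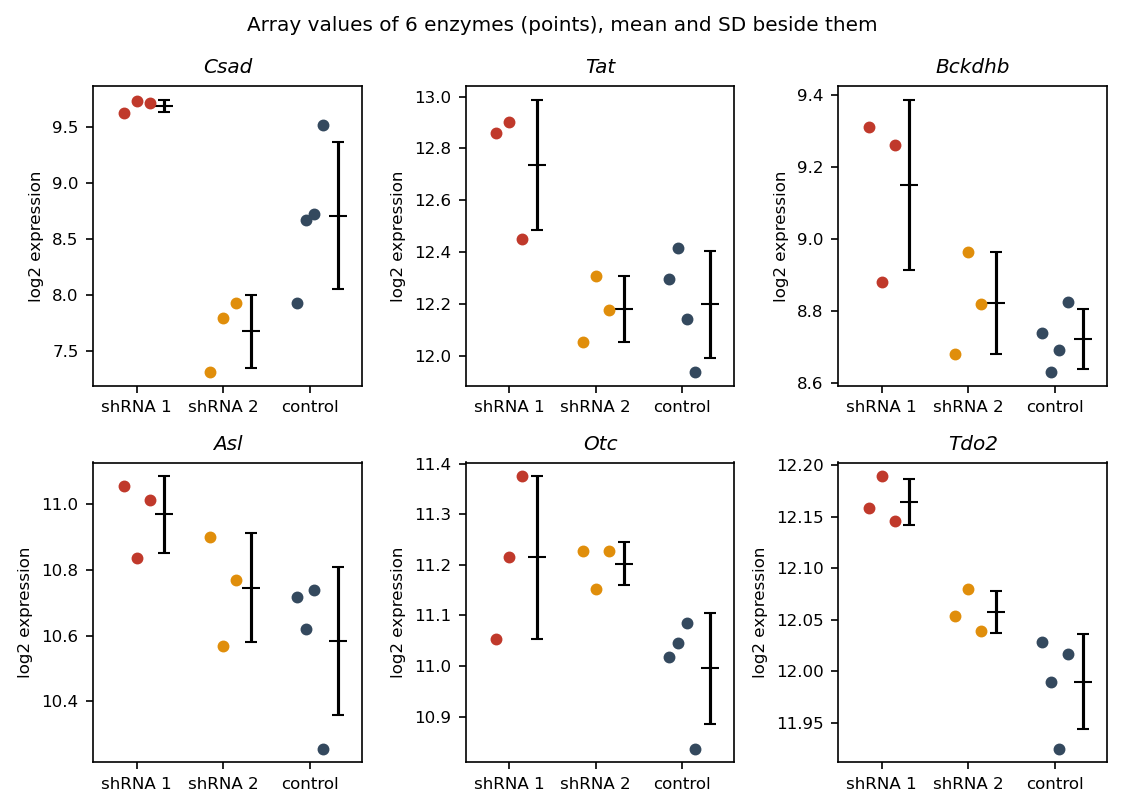
Log2 expression of Csad, Tat, Bckdhb, Asl, Otc and Tdo2 in each array (points) of shRNA 1 (n = 3), shRNA 2 (n = 3) and control livers (n = 4), with the group mean and SD beside the points. The shRNA 1 points lie above all control points for Csad, Tat, Bckdhb, Asl and Tdo2, while for Otc it is the shRNA 2 points that do; the axes do not start at 0.

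Among the enzymes of tyrosine breakdown, Tat, tyrosine aminotransferase, catalyses the first step and is a classic target of glucocorticoids and glucagon. It had 12.86, 12.90 and 12.45 in shRNA 1 livers, 12.05, 12.31 and 12.18 in shRNA 2 livers, against 12.30, 12.42, 12.14 and 11.94 in control livers. The shRNA 1 arrays lay above all others, by a narrow margin for array 3, and the shRNA 2 arrays lay within the control range. The difference from control was +0.54 for shRNA 1 (standard error 0.14, adjusted p = 0.324 in limma) and -0.02 for shRNA 2 (adjusted p = 0.990). shRNA 1 minus shRNA 2 was +0.56 (adjusted p = 0.564), which also missed the threshold. Hgd, which opens the ring of homogentisate, had 11.46, 11.54 and 11.55 in shRNA 1 livers, 11.41, 11.21 and 11.49 in shRNA 2 livers, against 11.21, 11.32, 11.38 and 11.13 in control livers. Its shRNA 1 arrays lay above every control and its adapted difference was +0.18 (adjusted p = 0.599 in limma). Hpd, which makes homogentisate, was at +0.14 in shRNA 1 and +0.00 in shRNA 2 livers, and Fah, the last enzyme of the pathway, at +0.02 and +0.01.

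Tdo2, tryptophan 2,3-dioxygenase, which opens the kynurenine pathway and, like Tat, is known to respond to glucocorticoids, was singled out after its values were seen. It had 12.16, 12.19 and 12.15 in shRNA 1 livers, 12.05, 12.08 and 12.04 in shRNA 2 livers, against 12.03, 11.99, 11.92 and 12.02 in control livers. It was the 1 enzyme of 39 (2.56%) in which all 6 adapted arrays lay above all 4 controls, against 1.04% of all genes, and the shRNA 1 arrays also lay above the shRNA 2 arrays. The difference was small, at +0.12 for adapted livers (standard error 0.07, adjusted p = 0.649 in limma, p = 0.0143 in the exact permutation test). Downstream, Kmo, which hydroxylates kynurenine, stood at -0.04, Kynu, which cleaves its product, at +0.06 and Haao, which makes the precursor of quinolinate, at +0.04 in adapted livers. None of these passed the test.

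The branched-chain enzymes were split. Bckdhb encodes the E1 beta subunit of the branched-chain ketoacid dehydrogenase, the committed step in the breakdown of leucine, isoleucine and valine. It had 9.31, 8.88 and 9.26 in shRNA 1 livers, 8.68, 8.96 and 8.82 in shRNA 2 livers, against 8.74, 8.63, 8.69 and 8.83 in control livers. Arrays 1 and 3 of shRNA 1 stood apart, while array 2 lay within the shRNA 2 range and just above the highest control. The difference from control was +0.43 for shRNA 1 (standard error 0.12, adjusted p = 0.351 in limma) and +0.26 for adapted livers (adjusted p = 0.513). In shRNA 2 livers Bckdhb was at +0.10. Of the other subunits of the complex Bckdha, the E1 alpha subunit, was at -0.08 in shRNA 1 and +0.10 in shRNA 2 livers, and Dbt, the E2 subunit, at +0.18 and +0.18. Ivd and the 2 subunits of methylcrotonyl-CoA carboxylase, Mccc1 and Mccc2, which follow in leucine breakdown, lay between -0.05 and +0.15 in the 2 lines. Bckdk, the kinase that switches the complex off, was at -0.02 in shRNA 1 and +0.17 in shRNA 2 livers, and Ppm1k, the phosphatase that switches it on, at -0.05 and +0.23.

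Gpt, the cytosolic alanine aminotransferase, which moves nitrogen between alanine and glutamate, had 9.39, 9.37 and 9.45 in shRNA 1 livers, 9.37, 8.89 and 9.51 in shRNA 2 livers, against 9.16, 8.93, 9.10 and 9.03 in control livers. Except for shRNA 2 array 2, all adapted arrays lay above the controls, and the adapted difference was +0.28 (standard error 0.11, adjusted p = 0.548 in limma). The mitochondrial form Gpt2 was at +0.05 and Prodh, which starts proline breakdown, at +0.06. Glud1, glutamate dehydrogenase, which frees ammonia from glutamate in mitochondria, was at +0.12 in shRNA 1 and -0.04 in shRNA 2 livers.

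In the methionine cycle Mat1a, which makes the methyl donor S-adenosylmethionine, had 12.82, 12.75 and 12.69 in shRNA 1 livers, 12.68, 12.62 and 12.79 in shRNA 2 livers, against 12.50, 12.57, 12.53 and 12.69 in control livers. Control 4 lay within the adapted range and the other 3 controls lay at or below 12.57. The adapted difference was +0.15 (adjusted p = 0.619 in limma, p = 0.0333 in the exact permutation test). Gnmt, which uses up excess S-adenosylmethionine, stood at +0.13 in shRNA 1 and -0.07 in shRNA 2 livers, and Ahcy, which clears its by-product, at +0.19 and -0.01. A second cluster of Ahcy stood at -0.07 in shRNA 1 and -0.32 in shRNA 2 livers, so that the direction in shRNA 1 livers, where Ahcy is 1 of the 12 wholly above the controls, depended on the cluster. Cbs and Cth, which convert homocysteine to cysteine, were at +0.02 and +0.10 in adapted livers. Cdo1, which oxidises cysteine to the substrate of Csad, was at +0.16 in shRNA 1 and +0.00 in shRNA 2 livers. Its 3 shRNA 1 arrays, 12.35, 12.47 and 12.47, lay above the shRNA 2 arrays, 12.29, 12.28 and 12.25, and the controls, 12.22, 12.30, 12.23 and 12.34. Bhmt, which remethylates homocysteine with betaine, was at -0.21, and its 10 values lay between 5.32 and 6.02. As for Ass1, whether the 1 cluster annotated with Bhmt alone follows the main transcript was not tested.

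The glycine cleavage system, which breaks glycine down in mitochondria, held the most negative difference of adapted livers among the 39 enzymes. Gcsh, its lipoyl carrier protein, had 6.09, 6.03 and 6.12 in shRNA 1 livers, 5.51, 6.08 and 6.21 in shRNA 2 livers, against 6.15, 6.22, 6.33 and 6.25 in control livers. The shRNA 1 arrays lay below all controls, and shRNA 2 array 1 was far below the rest. The adapted difference was -0.23 (standard error 0.12, adjusted p = 0.645 in limma), and without shRNA 2 array 1 it was -0.12. Gldc, the decarboxylase of the system, had 9.71, 9.89 and 9.92 in shRNA 1 livers, 9.52, 9.59 and 9.66 in shRNA 2 livers, against 9.74, 9.92, 9.82 and 9.57 in control livers. The shRNA 1 arrays lay above the shRNA 2 arrays while the controls overlapped both, with a difference between the lines of +0.25 (adjusted p = 0.806 in limma). Amt, the aminomethyltransferase, was at +0.16 in adapted livers.

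**Figure D4:**
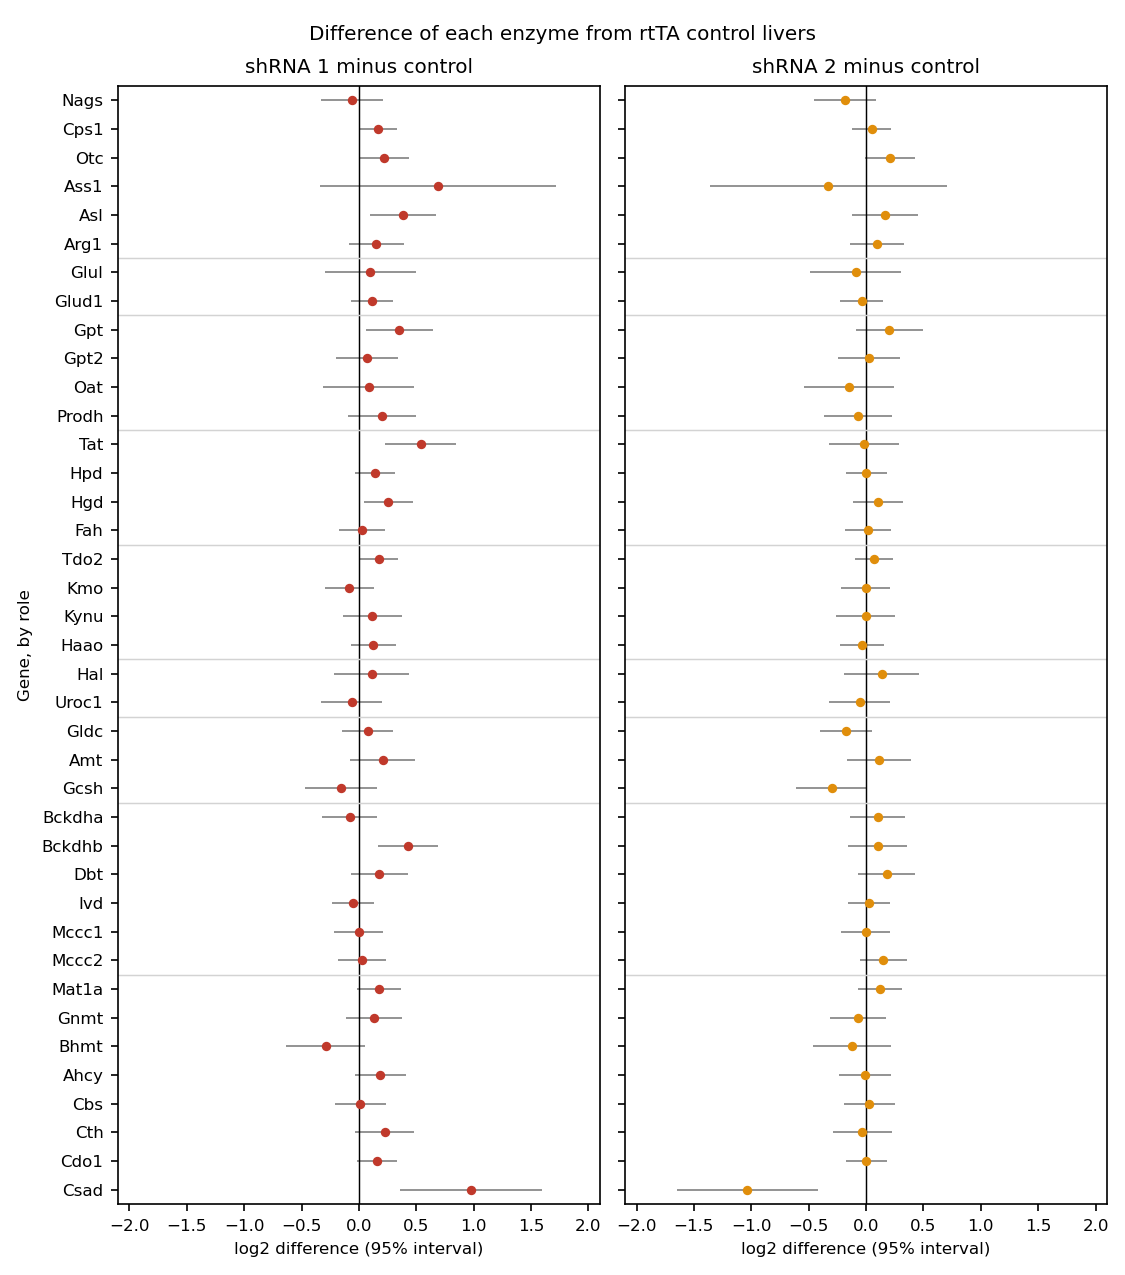
Difference of each of the 39 enzymes from the 4 rtTA control livers on the log2 scale, with its 95% interval from limma, for shRNA 1 livers (left) and shRNA 2 livers (right). In shRNA 1 livers 31 of 39 points lie right of 0 and in shRNA 2 livers 20 of 39; Csad lies at +0.98 on the left and -1.03 on the right.

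Some enzymes with opposite places in the lobule stood apart in 2 arrays of different groups, a pattern picked out after the values were seen. Glul, glutamine synthetase, and Oat, ornithine aminotransferase, both of pericentral hepatocytes, were lowest in shRNA 2 array 3, at -0.59 for both relative to the control mean, and in control array 1, at -0.29 and -0.34. Glul was at 10.87 and 11.17 in these 2 arrays, and in the others it ran from 11.51 to 11.63 in shRNA 1 livers, stood at 11.71 and 11.53 in shRNA 2 livers and ran from 11.42 to 11.64 in controls. A second cluster of Glul, lower in level, did not set these arrays apart. It was at 5.55 in shRNA 2 array 3, against 5.71 and 5.52 in the other shRNA 2 arrays. In control array 1 it was at 6.01, within the 5.83 to 6.50 of the other controls. Hal, histidine ammonia-lyase, and Uroc1, urocanate hydratase, which act in turn on histidine in periportal hepatocytes, lay above the control mean in the same arrays, at +0.45 and +0.15 in shRNA 2 array 3 and +0.21 and +0.23 in control array 1. Arg1 stood at +0.31 and +0.16 there. The other urea cycle enzymes were uneven in these arrays. Nags lay below its control mean of 8.65, at 8.28 and 8.60, and Cps1, at 12.90 and 12.84, was near its control mean of 12.84. Otc, Asl and Ass1 lay above their control means. The rise of Hal and Arg1 was not confined to these arrays. Hal was also at +0.28 and +0.20 in shRNA 1 arrays 2 and 3, and Arg1 at +0.24, +0.08 and +0.14 in the shRNA 1 arrays.

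The mean level of 11 pericentral markers was -0.09 in shRNA 2 array 3 and -0.40 in control array 1, within a range of -0.09 to +0.13 over the adapted arrays and -0.40 to +0.22 over the controls. That of 8 periportal markers was +0.32 and +0.25, within -0.02 to +0.32 in adapted arrays and -0.22 to +0.25 in controls. Slc1a2, a glutamate transporter of the pericentral rim, had its lowest values in these arrays, at 6.79 and 6.98, as Glul and Oat did. Of the 11 pericentral markers Cyp1a2, Axin2 and Nkd1 did so too, and the rest did not. In shRNA 2 array 3 Cyp7a1 was at 10.66 and Rgn at 11.76, above their control means of 9.89 and 11.65. The periportal markers Pck1 and Cyp2f2 were at 11.71 and 12.41 in that array, below their control means of 11.91 and 12.46. Etnppl, Cdh1 and Hsd17b13, also periportal, were at 10.14, 9.52 and 11.61 there, above their control means of 9.43, 9.08 and 11.42. The score of clock gene phase was +1.59 in shRNA 2 array 3 and +1.18 in control array 1, but also +1.29 in shRNA 2 array 1 and +0.83 in shRNA 1 array 1. The part of lobule markers, of clock phase and of either array in the pattern was not tested.

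**Figure D5:**
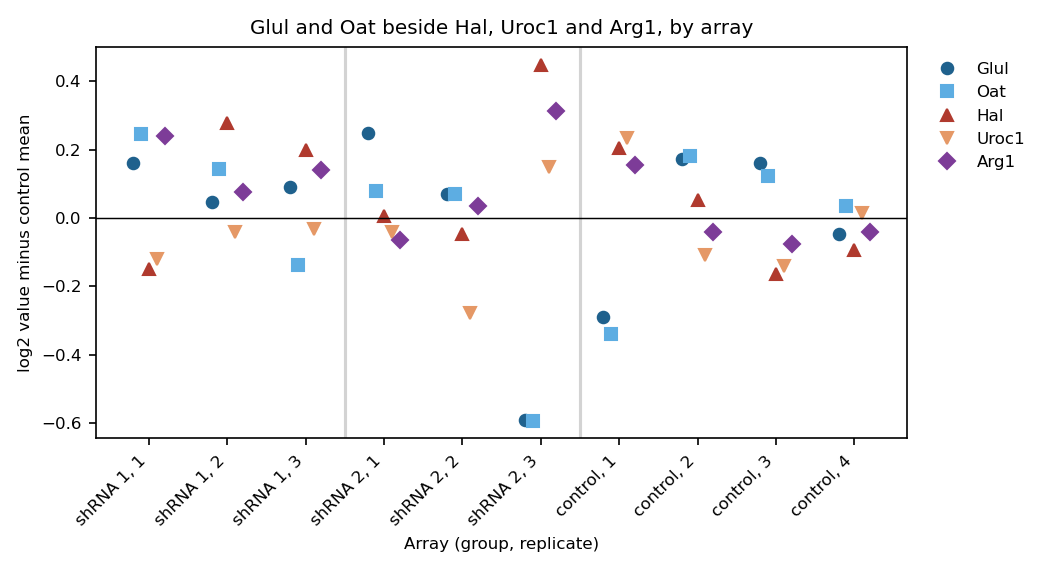
Log2 value minus the control mean in each of the 10 arrays for Glul and Oat (blue), known from pericentral hepatocytes, and for Hal, Uroc1 and Arg1 (red, orange and purple), known from periportal hepatocytes. In shRNA 2 array 3 and control array 1 Glul and Oat are at -0.59, -0.59, -0.29 and -0.34 while the other 3 genes lie above 0. Hal and Arg1 also lie above 0 in other arrays.

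Beyond the listed enzymes, 46 further enzymes of amino acid metabolism were tested, and 0 passed. Of these, 36 had a positive difference in adapted livers (52% of all genes did), with a median of +0.09. In shRNA 1 livers 12 of 46 (26.1%) lay wholly above the controls, where the background was 5.07%. Got1, the cytosolic aspartate aminotransferase, which supplies aspartate to the urea cycle, had 11.30, 10.85 and 10.73 in shRNA 1 livers, 10.91, 10.87 and 10.73 in shRNA 2 livers, against 10.61, 10.48, 10.24 and 10.29 in control livers. All 6 adapted arrays lay above all 4 controls, and the difference was +0.49 (adjusted p = 0.297 in limma). Gamt, which makes creatine, was at +0.35, Shmt2, the mitochondrial serine hydroxymethyltransferase, at +0.24 and Ddo, which oxidises D-aspartate, at +0.23. Positive differences were found for 35 of 46 in shRNA 1 (background 52.4%) and 34 of 46 in shRNA 2 livers (background 51.2%).

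Of 19 transporters of amino acids and ammonia, 15 were positive in adapted livers (background 52%) and 0 passed. Slc25a15, which carries ornithine into mitochondria for Otc, was at +0.33 in shRNA 1 livers (adjusted p = 0.364 in limma) and +0.03 in shRNA 2 livers. In adapted livers the glutamine carrier Slc38a3 was at +0.15, and the mitochondrial carriers of glutamate and of aspartate, Slc25a22 and Slc25a12, were at +0.27 and +0.21. Of 13 regulators of these pathways 0 passed and 5 were positive in adapted livers (background 52%). Ppargc1a, a coactivator of the fasting response, had 7.55, 7.49 and 7.22 in shRNA 1 livers, 6.72, 6.77 and 7.28 in shRNA 2 livers, against 6.61, 6.77, 6.38 and 6.57 in control livers. Its difference was +0.84 for shRNA 1 (adjusted p = 0.0894 in limma) and +0.34 for shRNA 2 (adjusted p = 0.636). Klf15, a transcription factor of amino acid breakdown, was at +0.38 in shRNA 1 and -0.08 in shRNA 2 livers, and Hnf4a, a factor of hepatocyte identity, at -0.18 in adapted livers. The mitochondrial deacylases Sirt5, known to act on Cps1, and Sirt3, known to act on Otc, were at +0.17 and -0.14 there.

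Since Tat and Tdo2 are known to respond to glucocorticoids and fasting, 10 other genes of that response were set beside them. All 10 were positive in shRNA 1 livers (background 52.4%), with a median of +0.37. In shRNA 2 livers 3 of 10 were positive (background 51.2%), with a median of -0.11, and 0 passed in either line. Sgk1 was at +0.57 in shRNA 1 and +0.28 in shRNA 2 livers, G6pc at +0.67 and +0.48, Pck1 at +0.27 and -0.14 and Tsc22d3 at +0.52 and -0.26. Per1 and Ddit4 stood at +0.38 and +0.22 in adapted livers. The mean of the 10 genes per array was +0.72, +0.10 and +0.19 in shRNA 1 livers, between -0.12 and +0.10 in shRNA 2 livers and between -0.32 and +0.14 in controls. The largest share of the shRNA 1 mean thus comes from array 1. Igfbp1, the widest of the 10 genes in spread, had 10.75, 8.07 and 9.35 in shRNA 1 livers, against a mean of 9.32 in controls. The time of day and the feeding state at collection are not known from the labels, and their part in the differences was not tested.

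Markers of other liver cells were set beside the enzymes, as means per array relative to the controls. The 7 sinusoidal endothelial markers lay between +0.06 and +0.16 in shRNA 1 livers, between -0.03 and +0.11 in shRNA 2 livers and between -0.06 and +0.09 in controls. Of these, Clec4g, Kdr and Oit3 (42.9%) lay wholly above the controls in shRNA 1 livers, at +0.30, +0.10 and +0.26, where the enzymes' share was 30.8% and that of all genes 5.07%. In shRNA 1 livers 4 of the 7 endothelial markers had a positive difference from control (background 52.4%) and 3 a negative one. The 7 macrophage markers lay between -0.03 and +0.19 in shRNA 1 livers, between +0.01 and +0.32 in shRNA 2 livers and between -0.13 and +0.22 in controls. Clec4f and Vsig4 (28.6%) lay wholly above the controls in shRNA 1 livers, at +0.16 and +0.18, and Vsig4 did so in shRNA 2 livers too, at +0.29. Of the 7 macrophage markers, 5 were positive and 2 negative in shRNA 1 livers, and 6 positive and 1 negative in shRNA 2 livers (background 51.2% positive). The 8 markers of stellate cells and fibroblasts lay between +0.02 and +0.03 in shRNA 1 livers, between -0.05 and +0.22 in shRNA 2 livers and between -0.08 and +0.17 in controls. Sox9, a marker of bile duct cells, had 4.95, 5.36 and 5.46 in shRNA 1 livers, 5.51, 5.46 and 5.53 in shRNA 2 livers, against 5.73, 6.06, 5.94 and 5.63 in control livers. All 6 adapted arrays lay below all 4 controls, with a difference of -0.46 (adjusted p = 0.303 in limma), where 0.842% of all genes lay wholly below the controls. The mean of the 3 bile duct markers tested lay between -0.32 and +0.06 in adapted livers and -0.10 and +0.17 in controls. The part of these markers in the differences of the enzymes was not tested. Of the markers of T and NK, B, erythroid, pancreatic and adipose cells, 1 to 3 per list passed the level filter, and 0 of the neutrophil markers did.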

How the data were processed

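Liver RNA, from 25 mg of tissue per sample, was hybridised to 10 arrays. The deposited values are on a log2 scale per transcript cluster and were made with Affymetrix Expression Console, per the submitters' processing notes. The sources used here do not give its version, the background correction, the normalization or the genome build. No further normalization was applied, so that this processing is carried into every difference. Of 41345 clusters 23521 were annotated on the platform with 1 gene symbol, 1814 with several and 16010 with none, and only the first kind was used. By Entrez identifier 23328 of these matched the gene table of GRCm38.p6, which changed 0 symbols. For the 1082 genes with several clusters the highest mean was kept. The test left out genes whose mean lay under the 40th percentile (log2 3.98).

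Groups were taken from the sample titles. One limma fit (3.58.1, R 4.3.3) over all 10 arrays with 3 group means gave 4 comparisons, two-sided, adjusted by the Benjamini-Hochberg method over 13308 genes, with 95% intervals. It was tested on simulated data. Single enzymes were also compared by exact permutation over 210 splits, without adjustment for their number. Cohort was no covariate. Array values are given for the 8 enzymes that had the largest moderated statistic in size for adapted minus control, the 4 largest in each other comparison and the 6 urea cycle enzymes. From the lists of further enzymes, transporters, regulators and glucocorticoid or fasting targets the 4 genes with the largest statistic in size for adapted minus control are named, and Klf15, Bckdk, Ppm1k, Slc25a15 and Sod2 in any case. Tdo2, Cdo1, Glul, Oat, Hal, Uroc1, Slc1a2, Pck1, Tsc22d3, Igfbp1 and the named markers other than Alb were singled out after their values were seen. The enzymes and lists were chosen with earlier results of these data known. The clock lists entered as a score and the marker lists as means. Array and list means are differences from the control mean. The clock score is the mean of 7 genes of one phase minus that of 4 of the opposite phase. Promoter sequences are from RefSeq, assembly GRCm38.p6. Figures were drawn with matplotlib 3.10.9.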

Additional observations from a re-analysis of the deposited data

Results flagged for a closer look

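Among the 39 enzymes, 2 had a control array far from the other 3 by Dixon's criterion, which chance meets in about 1 in 20 groups. Arg1 was at 11.64 in control array 1, against 11.41 to 11.45 in the other controls. Gnmt was at 11.26 in control array 4, against 11.52 to 11.54 in the other controls. Control array 1 is also the control with low Glul and Oat, and control array 4 was the lowest of all arrays for 11 of the 39 enzymes.

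Csad differed between the lines in opposite directions from control, by 2.01 on the log2 scale for shRNA 1 minus shRNA 2. The limma test of that difference gave an adjusted p of 0.0821, which misses the threshold, and over all alternatives the adjusted p ran from 0.00245 to 0.341.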

How the results depend on the processing

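The 4 comparisons were repeated under 22 other settings. Of 528 values of named enzymes 517 kept their direction and stayed uncalled, 8 passed the threshold newly and 3 reversed. No call could be lost, since the fit above called 0 of the 39 enzymes in any comparison. The 3 reversals were all of Ass1 in adapted livers, at -0.10 with the clock score as a covariate, -0.13 without control 3 and -0.01 without shRNA 2 array 3 (-0.13 to 0.51 over arrays left out). The 8 new calls were all of Csad, shRNA 1 minus shRNA 2. It passed with median centring (adjusted p = 0.0493), array weights (0.0159), a fit of only the groups compared (0.00434), a threshold of 0.10, without control 1 (0.0141), without control 4 (0.0101) and without both control 1 and shRNA 2 array 3 (0.0384), each with 1 enzyme past the threshold. It did not with an intensity trend and robust prior (0.164) or the clock covariate (+1.70, 0.341). Same-numbered samples did not deviate together, since correlations of 9 pairs ran from -0.25 to 0.27 with 4 over 0.1, so numbers were not taken as pairs. With the replicate number as a block 1 enzyme, Csad, passed in shRNA 1 minus shRNA 2 (adjusted p = 0.00245), and 4 genes in all. Leaving out 1 array gave 0 to 1 enzymes there and 0 to 0 in the other comparisons, and Csad at 1.83 to 2.14. Of all genes, leaving out 1 array called 1 to 3 for adapted, 0 to 11 for shRNA 1 and 1 to 3 for shRNA 2 against control and 1 to 4 between the lines. For shRNA 1 against control, where 0 passed, the count was 1 with quantile normalization, 15 with a filter at the 60th percentile, 7 with the mean of clusters, 19 with array weights, 30 with the trend and robust prior, 20 at 0.10, 3 with the clock covariate and 8 without the 2 arrays. Between the lines, where 2 passed, it was 1 with quantile normalization, the 60th percentile filter or the clock covariate, 4 with median centring, 6 with weights, 7 with the trend and 8 at 0.10. For adapted livers, where 1 passed, it was 0 at the 60th percentile and with only the groups compared, 6 with the trend, 2 at 0.10 and 4 without the 2 arrays, and for shRNA 2, where 1 passed, 0 at the 60th percentile. The causes were not tested. Enzymes wholly above the controls in shRNA 1 livers numbered 11 to 15 over all settings (background 3.92% to 10.3%), and wholly above shRNA 2 livers 10 to 18 (4.9% to 12.6%). The fit without the 2 arrays and these counts were chosen after seeing the data.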

Other observations

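A second cluster was annotated for Nags, Ahcy and Glul, with lower values than the one used. Adapted minus control was -0.04 for the second cluster of Nags and -0.20 for that of Ahcy, where the cluster used stood at +0.09. In shRNA 1 livers the second cluster of Ahcy stood at -0.07 and the cluster used at +0.19. For Glul it was -0.19, with +0.11 in shRNA 1 and -0.49 in shRNA 2 livers. The Ahcy and Glul clusters thus disagree in sign for adapted livers, and which of them follows the main transcript was not tested.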
